A study of Mus musculus with 8 samples.

Results

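Insulin-like growth factor (IGF) signalling in primordial follicles was examined through 9 genes. They are the ligand gene Igf1, the receptor genes Igf1r and Insr, and the binding protein genes Igfbp2, Igfbp3, Igfbp4, Igfbp5, Igfbp6 and Igfbp7. The genes were taken by symbol from the 26586 genes listed, and all 9 were among the 13873 genes that passed the filter on low counts. IGF1 is a secreted peptide that activates the receptor tyrosine kinase IGF1R, a close relative of the insulin receptor INSR, and both receptors pass the signal through adaptor proteins to PI3K, AKT, FOXO and mTOR. The IGF binding proteins (IGFBPs) hold IGFs outside the cell, where they can limit or prolong their action, and proteases release the ligand again. In the mouse ovary IGF1 is known as a product of granulosa cells that supports follicle growth, and PI3K signalling through FOXO3 in the oocyte is known to control the activation of primordial follicles.

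The libraries hold transcripts of follicles at the primordial stage, taken from C57Bl/6 x CBA mice on postnatal day 3 and read by RNA-Seq. The 4 mito-supplemented samples came from the third generation descended from founders that developed from oocytes given autologous mitochondria of egg precursor cells at intracytoplasmic sperm injection, and the 4 control samples came from mice of the same background without this supplementation. The founder embryos were also cultured, vitrified and transferred to surrogate females. The paper does not say whether the ancestors of these RNA-Seq controls were injected or handled in this way. Supplementation may therefore not be the only difference between the groups. The comparison asks whether transcript levels differed between these groups in a generation that was not itself supplemented. Follicles were picked from enzyme-digested ovaries, each RNA sample came from the follicles of a single ovary, and a further control library that the authors had set aside was not analysed here. The label codes of the control samples begin with 280 (replicates 1 and 2) or 301 (replicates 3 and 4), and those of the mito-supplemented samples with C56 (replicates 1, 2 and 3) or C60 (replicate 4). Nothing in the labels says whether samples that share a code came from siblings or from separate litters, so p values measure only the spread between these samples.

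Total counts of replicates 1 to 4 were 17658559, 13917412, 18219362 and 10370045 in the control group and 19760763, 13370911, 16116434 and 13276462 in the mito-supplemented group. Control replicate 4 stood apart, since 2559876 of its counts lay outside 4 ribosomal RNA genes, against 7280214 to 15778975 in the other libraries. Control replicate 1 stood apart in another way, as the 8 oocyte markers examined summed to 1451 CPM in it and to between 50.4 and 264.5 CPM in the other libraries. CPM are counts scaled to a common library size, here after TMM normalisation, which corrects for differences in composition between libraries. Of the oocyte markers, Ddx4, Dazl, Zp3, Gdf9, Nobox, Figla and Kit were above the detection limit of 3 counts in all 8 libraries, and Sohlh1 in all but mito-supplemented replicate 4, where it had 1 count. Markers of stroma, vessels and surface epithelium were also present in each. In such bulk samples, fewer cells of a type and less RNA per cell cannot be told apart. Intervals and detection limits cover counting error only, because amplified reads are not independent molecules.

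Mean levels of Igf1 and of all 6 IGFBPs were higher in mito-supplemented samples, but none of these genes passed the test, and the receptor genes Igf1r and Insr had mean levels 0.836 and 1.01 times those of controls. Igfbp2 averaged 30.7 ± 16.6 CPM in mito-supplemented samples against 5.82 ± 3.10 CPM in controls, and Igfbp5 averaged 1507 ± 441 against 520.0 ± 465 CPM (± SD, n = 4 each). The quasi-likelihood test of edgeR, adjusted after Benjamini-Hochberg over all genes tested, called genes that had an adjusted p under 0.05 and a 2-fold difference, and 0 of the 9 genes were called, as were 0 of 13873 genes (0%). At an unadjusted p under 0.05, 2 of the 9 (Igfbp2 and Igfbp5) were higher in mito-supplemented samples, where 5.31% of all genes were, and 0 were lower, where 2.40% of all genes were. Those shares of all genes depended on the scaling and on single libraries. Scaling by library size alone put 1288 of 13873 genes higher and 53 lower at this p. Without mito-supplemented replicate 1 the numbers were 1006 higher and 997 lower, of 14251 genes. The groups were separated, with each mito-supplemented library above each control library, for 2 of the 9 (Igfbp2 and Igfbp6), beside 3.00% of all genes, and separated in the other direction for 0 of the 9, beside 2.03%.

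Other tools gave other counts for these genes. The higher calls among the 9 numbered 0 with edgeR's likelihood ratio test (0.411% of all genes), 1 with DESeq2 (Igfbp2, 0.959% of the 13657 genes with an adjusted p) and 5 with limma-voom and sample quality weights (Igf1, Igfbp2, Igfbp4, Igfbp5 and Igfbp6, 10.4% of all genes). Log2 fold changes are given as mito-supplemented against control. Of the 9, 8 were above 0, with a median of 0.84, whereas 44.9% of all genes tested were above 0, with a median of -0.098. All 6 IGFBPs tested were above 0 in this fit, with a median of 1.32, and stayed so with other size factors, with library size alone and after correction for GC content and gene length. Leaving out mito-supplemented replicate 3 put Igfbp7 at -0.53. Without control replicate 4 the 6 IGFBPs ran from 0.98 to 2.84, against 0.45 to 2.45 with all libraries. Scaling by library size alone moved the median of all genes from -0.098 to 0.17, and Igf1r, the only gene of the 9 below 0 with TMM, then had a log2 fold change of 0.045.

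**Figure D1:**
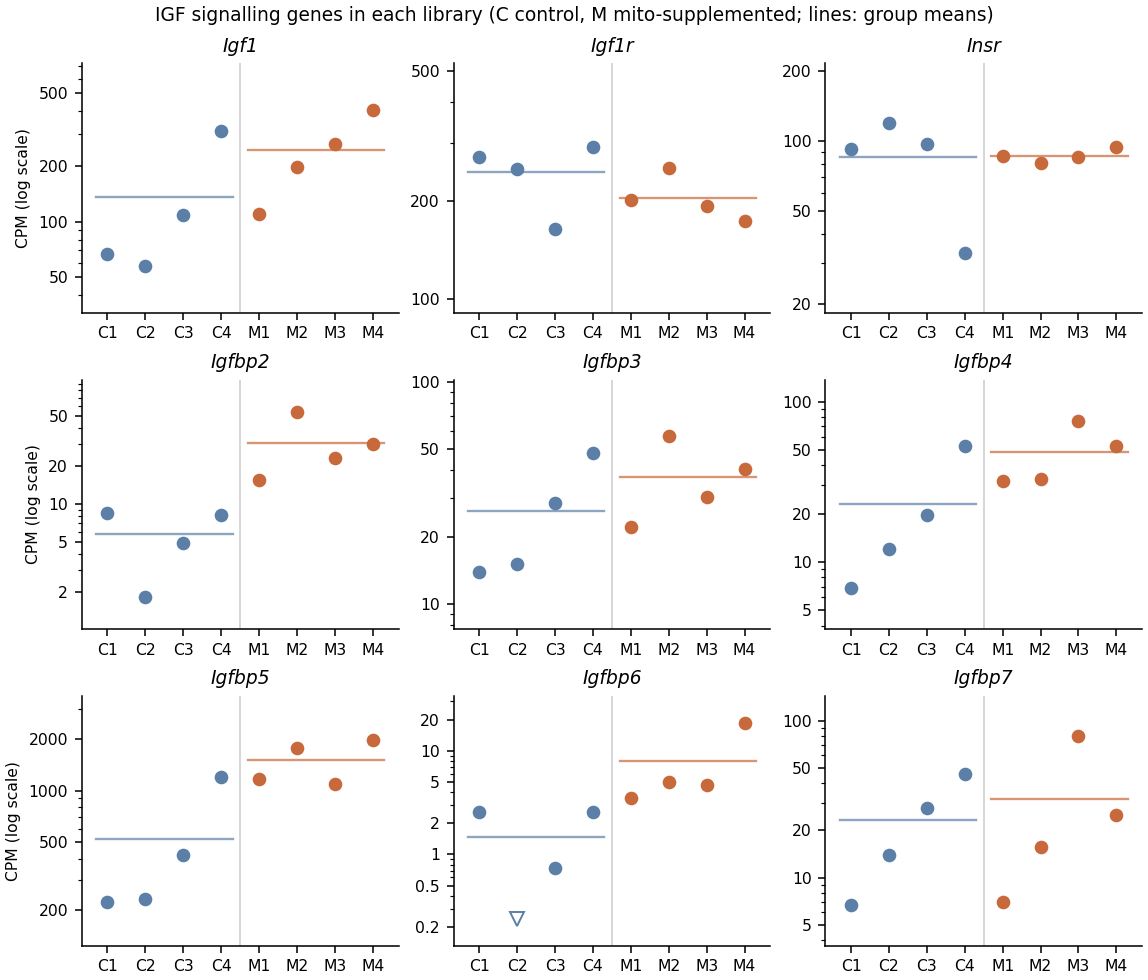
TMM-normalised CPM (log axis) of the 9 genes in control libraries 1 to 4 (C1 to C4, blue) and mito-supplemented libraries 1 to 4 (M1 to M4, orange), with lines at the group means. Igfbp2 and Igfbp6 are the genes whose groups do not overlap, and the open triangle marks the 0 counts of Igfbp6 in C2, drawn at that library's detection limit of 0.238 CPM.

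The plot of CPM by library shows each gene on its own log axis, so that the scatter within a group can be set against the step between group means. For Igf1, Igfbp3, Igfbp4, Igfbp5 and Igfbp7 control replicate 4 lies among the mito-supplemented libraries, while control replicates 1 and 2 are near the bottom of the panel.

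Igf1 (chr10:87858265-87937042, GRCm38, plus strand), the ligand gene, was measured at 67.2, 57.6, 108 and 312 CPM in control replicates 1 to 4, and at 111, 197, 264 and 404 CPM in mito-supplemented replicates 1 to 4. The groups overlapped, with control replicate 4 above 3 of the mito-supplemented libraries and mito-supplemented replicate 1 close to control replicate 3. The fitted log2 fold change of Igf1 was 0.84 (standard error 0.59, edgeR quasi-likelihood test, adjusted p = 0.722). This value rested on single libraries, as it was 1.67 once control replicate 4 was left out and 0.52 once mito-supplemented replicate 4 was. The other IGF ligand gene, Igf2, was measured at 103, 96.5, 202 and 466 CPM in controls and at 325, 427, 188 and 811 CPM in mito-supplemented samples. Control replicate 4 was again the highest control, above 3 of the mito-supplemented libraries, and mito-supplemented replicate 3 lay also below control replicate 3. Igf2 had an estimated log2 fold change of 1.01 (standard error 0.60, edgeR quasi-likelihood test, adjusted p = 0.687), which was 0.56 once mito-supplemented replicate 4 was left out and 1.72 once control replicate 4 was, and 3694 bases of its annotated exons overlap those of Gm49394 and Igf2os, so its reads may include theirs. Ins1 had 0 counts in all 8 libraries, and Ins2, with at most 13 counts in a library, did not pass the filter.

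Igf1r (chr7:67952827-68233668, plus strand), which encodes the IGF1 receptor, was measured at 273, 251, 164 and 293 CPM in control replicates 1 to 4 and at 201, 252, 192.5 and 174 CPM in mito-supplemented replicates 1 to 4. It was the steadiest of the 9 genes in controls, with a highest value 1.79 times the lowest, and all mito-supplemented libraries lay inside the control range. For Igf1r the log2 fold change was -0.26 (standard error 0.30, edgeR quasi-likelihood test, adjusted p = 0.811), between -0.41 and -0.14 as single libraries were left out. Insr (chr8:3122061-3279617, minus strand), the insulin receptor gene, was measured at 92.3, 119.6, 97.2 and 33.2 CPM in controls and at 86.0, 80.3, 85.3 and 93.9 CPM in mito-supplemented samples. The mito-supplemented libraries lay close together, and control replicate 4, with 168 counts of Insr, lay well below all the others. Insr averaged 86.4 ± 5.62 CPM in mito-supplemented samples against 85.6 ± 36.9 CPM in controls (± SD, n = 4 each), and its log2 fold change was 0.013 (standard error 0.39, edgeR quasi-likelihood test, adjusted p = 0.994). Without control replicate 4 it was -0.23, so the sign of the Insr value depended on that library. Igf2r, whose product clears IGF2 from the cell surface, had a fitted log2 fold change of -0.25 (standard error 0.46, edgeR quasi-likelihood test, adjusted p = 0.872), which was 0.29 without control replicate 1. The ratio of Igf1 to Igf1r, each per kilobase of exon, was 0.418, 0.390, 1.12 and 1.81 in controls and 0.933, 1.33, 2.33 and 3.95 in mito-supplemented samples, and the groups overlapped.

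Igfbp2 and Igfbp5 are neighbours on chromosome 1 and lie tail to tail, with Igfbp2 at chr1:72824503-72852474 on the plus strand and Igfbp5 at chr1:72857932-72874884 on the minus strand. Igfbp4 is at chr11:99041244-99054392 on the plus strand and Igfbp6 at chr15:102144362-102149511 on the plus strand. These 4 genes had the largest log2 fold changes among the 9, and for that reason 150 bases are shown that end just before the more upstream of the gene's RefSeq and GENCODE starts, from RefSeq (GRCm38.p6), 5′ to 3′ along the gene's strand. The stretches are chr1:72824330-72824479 (plus strand) for Igfbp2, chr1:72874885-72875034 (minus strand) for Igfbp5, chr11:99041094-99041243 (plus strand) for Igfbp4 and chr15:102144036-102144185 (plus strand) for Igfbp6, and capitals mark matches on either strand to any of 5 motifs.
Igfbp2: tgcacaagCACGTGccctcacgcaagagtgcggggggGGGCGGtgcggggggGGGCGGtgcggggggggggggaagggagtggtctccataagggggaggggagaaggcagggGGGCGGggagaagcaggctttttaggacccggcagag
Igfbp5: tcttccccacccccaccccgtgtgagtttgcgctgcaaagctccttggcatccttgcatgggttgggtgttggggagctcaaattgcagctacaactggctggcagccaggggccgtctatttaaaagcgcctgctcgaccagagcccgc
Igfbp4: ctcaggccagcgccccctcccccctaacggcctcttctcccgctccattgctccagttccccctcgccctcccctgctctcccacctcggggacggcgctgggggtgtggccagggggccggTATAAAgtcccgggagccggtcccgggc
Igfbp6: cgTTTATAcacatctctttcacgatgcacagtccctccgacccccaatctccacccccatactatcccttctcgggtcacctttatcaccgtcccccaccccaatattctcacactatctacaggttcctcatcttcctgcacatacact
The motifs were the TATA box TATAAA, the GC box GGGCGG, the E box CACGTG, the AP-1 motif TGANTCA and the EGR motif GCGNGGGCG, in which the GC box can overlap the EGR motif. With -1 as the base next to the RefSeq start, Igfbp2 held the E box at -142 and GC boxes at -113, -98 and -37, Igfbp4 held a TATA box at -28, and Igfbp6 held a TATA box on the reverse strand at -148. None of the 5 motifs was in the stretch of Igfbp5. Of the 9 genes, 8 had RefSeq promoter windows of 300 bases (250 before and 50 after the RefSeq start), and Insr had none. There were 9 windows in all, because Igfbp2 has another RefSeq start, whose window (chr1:72825137-72825436) held an AP-1 motif at -39. The TATA box was in 2 of these windows, the GC box in 3, the E box in 1, the AP-1 motif in 2 and the EGR motif in 0. Over 32851 RefSeq windows of the same length the shares were 13.6%, 35.7%, 7.15%, 7.81% and 5.55% in the same order. A match describes the letters only and shows no binding.

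Igfbp5 encodes a binding protein that also attaches to extracellular matrix. It was measured at 223, 233, 421 and 1204 CPM in control replicates 1 to 4 and at 1171, 1771, 1097 and 1989.8 CPM in mito-supplemented replicates 1 to 4. Control replicates 1, 2 and 3 were all below the lowest mito-supplemented library, and the groups overlapped through control replicate 4 alone, which lay above 2 mito-supplemented libraries. Depth was not limiting for this gene, with 2933 to 7364 counts in controls and 24128 to 28618 in mito-supplemented samples. Igfbp5 was 1.54 higher on the log2 scale (standard error 0.56, unadjusted p = 0.0213, edgeR quasi-likelihood adjusted p = 0.626), and over 21 alternatives, those without single libraries included, the adjusted p ranged from 0.0124 to 0.971. Its log2 fold change was 2.38 once control replicate 4 was left out and 1.29 once control replicate 2 was.

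Igfbp2, which encodes a binding protein found in many fetal tissues, was measured at 8.45, 1.82, 4.92 and 8.09 CPM in control replicates 1 to 4. In mito-supplemented replicates 1 to 4 it was measured at 15.5, 54.0, 23.4 and 30.0 CPM. Each mito-supplemented library was above each control library, and the highest control reached 8.45 CPM against a lowest mito-supplemented value of 15.5 CPM. Igfbp2 had the lowest p of the 9 genes, at a log2 fold change of 2.40 (standard error 0.60, unadjusted p = 0.00242, edgeR quasi-likelihood adjusted p = 0.544). Its adjusted p was 0.0580 in edgeR's likelihood ratio test, 0.0160 in DESeq2 and 0.0143 in limma-voom, within a range of 0.0143 to 0.971 over all settings tried. Its log2 fold change stayed between 1.99 and 2.67 as single libraries were left out, the lowest when mito-supplemented replicate 2 was omitted. The counts behind it were small in controls, with 206, 23, 86 and 41 for replicates 1 to 4, against 320 to 779 in mito-supplemented samples.

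Igfbp6, whose product prefers IGF2 to IGF1, was measured at 2.58, 0, 0.743 and 2.57 CPM in control replicates 1 to 4 and at 3.54, 4.99, 4.72 and 18.8 CPM in mito-supplemented replicates 1 to 4. The groups were separated, but narrowly, and mito-supplemented replicate 4 was far above the rest of its group. These are low levels, resting on 63, 0, 13 and 13 counts in controls and 73, 72, 104 and 270 counts in mito-supplemented samples, and the 0 of control replicate 2 allows up to 0.238 CPM. Igfbp6 was 2.45 higher on the log2 scale (standard error 1.15, edgeR quasi-likelihood test, adjusted p = 0.655), and 1.64 without mito-supplemented replicate 4. Igfbp4, whose product is a substrate of the protease PAPPA, was measured at 6.85, 12.1, 19.5 and 52.9 CPM in controls. It was at 31.8, 33.0, 76.2 and 52.9 CPM in mito-supplemented samples. Control replicate 4 matched mito-supplemented replicate 4, and the other controls were below all mito-supplemented libraries. For Igfbp4 the log2 fold change was 1.09 (standard error 0.62, edgeR quasi-likelihood test, adjusted p = 0.681), and 1.94 without control replicate 4.

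Igfbp3 (chr11:7206086-7213923, minus strand) encodes the main IGF carrier of serum. It was measured at 13.9, 15.1, 28.4 and 47.6 CPM in controls and at 22.2, 56.8, 30.2 and 40.4 CPM in mito-supplemented samples. The groups were interleaved, and the log2 fold change was 0.51 (standard error 0.49, edgeR quasi-likelihood test, adjusted p = 0.782), 0.25 once mito-supplemented replicate 2 was left out and 0.98 once control replicate 4 was. The next gene to Igfbp3 on chromosome 11, Igfbp1 (chr11:7197782-7202546, plus strand), had 0 counts in all 8 libraries. Igfbp7 (chr5:77349240-77408041, minus strand), whose product binds IGFs only weakly, was measured at 6.65, 13.9, 27.6 and 45.4 CPM in controls and at 6.99, 15.7, 79.6 and 24.9 CPM in mito-supplemented samples. The groups overlapped almost fully, and mito-supplemented replicate 3 stood far above the others. The log2 fold change of Igfbp7 was 0.45 (standard error 0.78, edgeR quasi-likelihood test, adjusted p = 0.869), and -0.53 without mito-supplemented replicate 3. An 85-base stretch of its exons overlaps Polr2b on the opposite strand, and whether the counting used strand is not given in the sources used here.

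**Figure D2:**
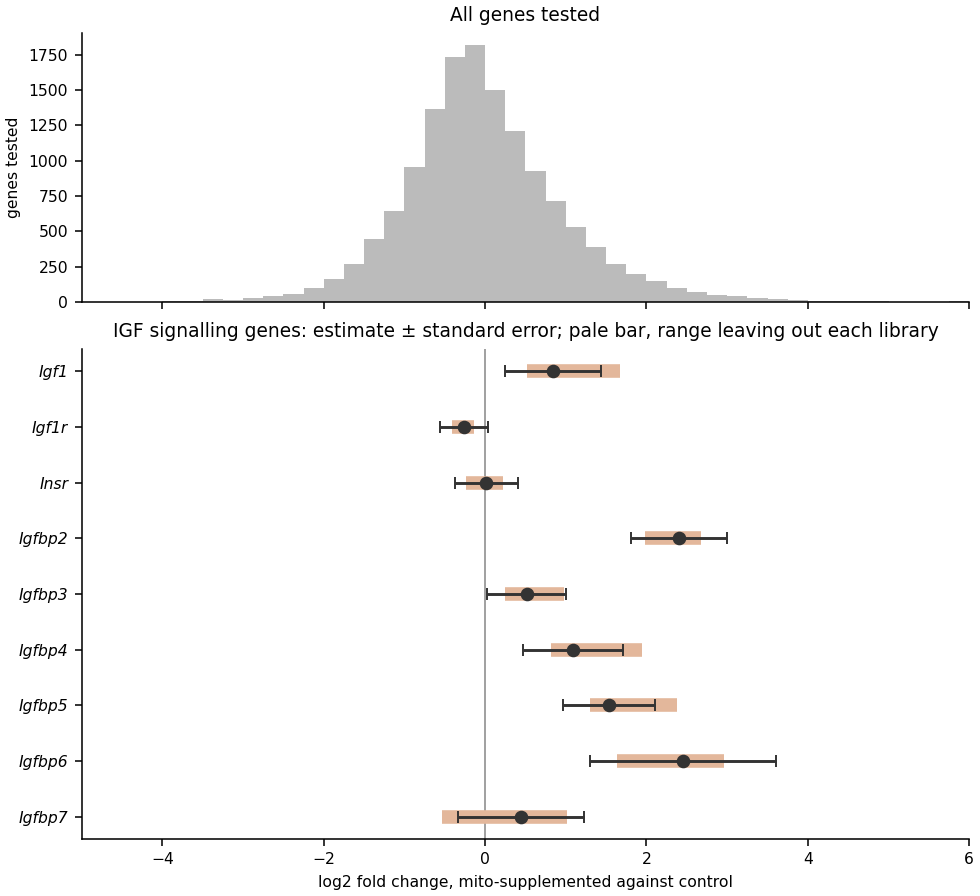
Histogram of the log2 fold changes of all 13873 genes tested (top, values beyond the axis in the end bins) and, below it, those of the 9 genes as points with standard errors and pale bars for the range over fits without 1 library. The 6 IGFBPs and Igf1 lie to the right of the median of all genes, Insr is near 0 and Igf1r is at -0.26.

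The plot of fold changes against all genes tested shows the width of the errors. The standard error was 0.49 or more for Igf1 and each IGFBP, and it was 1.15 for Igfbp6, the gene with the fewest counts. The common biological coefficient of variation of these libraries was 0.771.

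Levels were compared between genes as CPM per kilobase of annotated exon. In controls Igfbp5 had the highest mean level at 86.6 ± 77.4, followed by Igfbp7 at 19.3 ± 14.1, Igf1r at 14.6 ± 3.38 and Igf1 at 13.8 ± 12.05 CPM per kb (SD, n = 4). Below them came Igfbp3 at 8.39 ± 5.004, Insr at 6.22 ± 2.69, Igfbp4 at 5.17 ± 4.69, Igfbp2 at 3.15 ± 1.68 and Igfbp6 at 1.33 ± 1.18 CPM per kb. Each of these neighbours in the control order overlapped the next within 1 SD. In mito-supplemented samples Igfbp5 was at 251 ± 73.5 CPM per kb and stood clear of Igfbp7 at 26.3 ± 27.0, Igf1 at 24.6 ± 12.5 and Igfbp2 at 16.6 ± 8.98 CPM per kb. The remaining genes, from Igf1r at 12.2 ± 1.99 to Insr at 6.29 ± 0.409 CPM per kb, were not separated from their neighbours in that order. Within single libraries Igfbp5 was the highest of the 9 genes in 8 of 8.

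**Figure D3:**
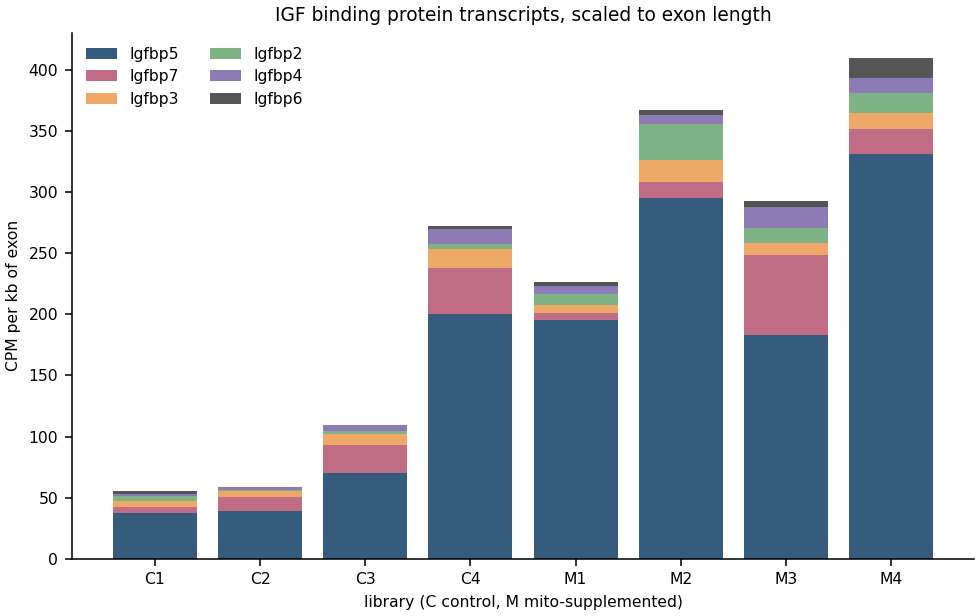
Stacked CPM per kb of exon of the 6 IGFBPs in each library, from 0. Igfbp5 makes up most of every bar, and the bar of control replicate 4 (272) reaches above that of mito-supplemented replicate 1 (227).

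The stacked plot of the IGFBPs shows how far Igfbp5 sets their sum. The summed level was 55.5, 58.7, 109.8 and 272 CPM per kb in control replicates 1 to 4 and 227, 367, 292 and 409.9 CPM per kb in mito-supplemented replicates 1 to 4. Igfbp5 held 77.4 ± 10.3% of this sum in mito-supplemented samples and 67.6 ± 4.28% in controls (± SD, n = 4 each). These shares overlapped, as mito-supplemented replicate 3, at 62.5%, was below the lowest control, at 63.9%. Igfbp3 held 7.99, 8.24, 8.27 and 5.59% in controls and 3.13, 4.94, 3.30 and 3.15% in mito-supplemented samples. The share of Igfbp3, singled out after its values were seen, was lower in each mito-supplemented library than in each control, although its level was not. The ratio of Igfbp5 to Igf1r per kb, chosen after its values were seen and therefore not tested, was 2.29, 2.59, 7.18 and 11.5 in controls and 16.3, 19.7, 15.9 and 32.0 in mito-supplemented samples. The groups did not overlap in this ratio, and control replicate 4 had both the most Igfbp5 and the most Igf1r of the controls. They overlapped in the other ratios computed, which were the IGFBP sum to Igf1, Igf1 to Igf1r, Igf1r to Insr, Igfbp5 to Igfbp4 and Igfbp2 to Igfbp5.

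The wider pathway was described through 65 further genes grouped by role, of which 64 were listed and 58 tested. In edgeR's quasi-likelihood test 0 of the 58 were called, and at an unadjusted p under 0.05 there was 1 higher gene (Grb14, beside 5.31% of all genes) and 4 lower genes (Tsc1, Rptor, Pdpk1 and Rps6kb2, beside 2.40% of all genes). The likelihood ratio test and DESeq2 called 0 of the 58, where they called 0.418% and 1.03% of all genes. With limma-voom 6 were called higher and 5 lower, shares near the 10.4% and 8.22% of all genes. Of the 58 genes 27 had a log2 fold change above 0 and 31 below, with a median log2 fold change of -0.084, against -0.098 over all genes tested. The lowest adjusted p among them in the quasi-likelihood test of edgeR was 0.599.

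Between ligand and receptor, 6 of 7 genes for IGFBP proteases and their inhibitors had log2 fold changes above 0, beside 44.9% of all genes tested. Pappa, which encodes a protease of IGFBP4, was at -0.36 (standard error 0.65, edgeR quasi-likelihood test, adjusted p = 0.873). Stc2, which encodes an inhibitor of PAPPA, was at 0.49 (standard error 1.36, edgeR quasi-likelihood test, adjusted p = 0.920). Neither sign was stable, as Pappa was at 0.35 after omission of control replicate 3 and Stc2 at -0.094 after omission of mito-supplemented replicate 2. Of the adaptor genes 9 of 10 were above 0, beside the same 44.9% of all genes tested. Grb14, an adaptor that binds the insulin receptor and inhibits its kinase, was measured at 10.5, 7.21, 7.09 and 14.4 CPM in controls and at 9.995, 25.6, 40.7 and 54.2 CPM in mito-supplemented samples. Mito-supplemented replicate 1 lay among the controls, and the other 3 were above all of them. For Grb14 the estimate was a log2 fold change of 1.74 (standard error 0.55, unadjusted p = 0.00971, edgeR quasi-likelihood adjusted p = 0.599). Irs1 and Irs2, the docking proteins of both receptors, had log2 fold changes of 0.84 and 0.12 (edgeR quasi-likelihood adjusted p = 0.667 and 0.956), the latter -0.16 once control replicate 4 was left out and -0.067 once mito-supplemented replicate 1 was. Exons of Irs1 and Irs2 overlap genes on the opposite strand over 2822 and 162 bases, so these counts may hold reads of both.

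Of the PI3K and AKT genes 8 of 13 were below 0, and of the mTOR genes 9 of 11, with a median of -0.66 for the latter, while 7648 of the 13873 genes tested were below 0. Tsc1, which restrains mTOR, was measured at 116, 116, 92.2 and 79.9 CPM in controls and at 61.8, 59.9, 52.0 and 66.4 CPM in mito-supplemented samples. All mito-supplemented libraries were below all controls, and the log2 fold change of Tsc1 was -0.75 (standard error 0.29, edgeR quasi-likelihood test, adjusted p = 0.626). Rptor, the scaffold of mTOR complex 1, was measured at 68.4, 60.5, 55.9 and 75.003 CPM in controls and at 52.0, 44.0, 27.1 and 21.1 CPM in mito-supplemented samples. These groups were separated as well, and Rptor, which shares 84 exon bases with an opposite-strand gene, was at a log2 fold change of -0.85 (standard error 0.37, edgeR quasi-likelihood test, adjusted p = 0.636). Phlpp1, an AKT phosphatase, was the remaining separated gene of the 58, with a log2 fold change of -0.79 (edgeR quasi-likelihood adjusted p = 0.655) that was -0.22 with control replicates 1 and 4 left out. Separated genes were thus 3 of 58 in the lower direction, beside 2.03% of all genes, and 0 in the higher, beside 3.00%.

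The kinase gene Pdpk1, whose product phosphorylates AKT, was at -0.82, Rps6kb2, an S6 kinase gene, at -1.44, and Mlst8, which encodes a subunit of the mTOR complexes, at -1.15 (edgeR quasi-likelihood adjusted p = 0.636, 0.643 and 0.655). Exons of Rps6kb2 and Mlst8 overlap opposite-strand genes over 1269 and 997 bases, which leaves their counts uncertain. Akt1 and Foxo3 had log2 fold changes of 0.12 and -0.34 (edgeR quasi-likelihood adjusted p = 0.954 and 0.856), and Akt1 was below 0 after leaving out control replicate 1, 2 or 3 or mito-supplemented replicate 4, with a lowest value of -0.096, and at 1.03 without control replicate 4. Foxo3 was at -0.062 after omission of control replicate 2, at -0.97 after omission of mito-supplemented replicate 1 and at -1.08 with limma-voom.

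**Figure D4:**
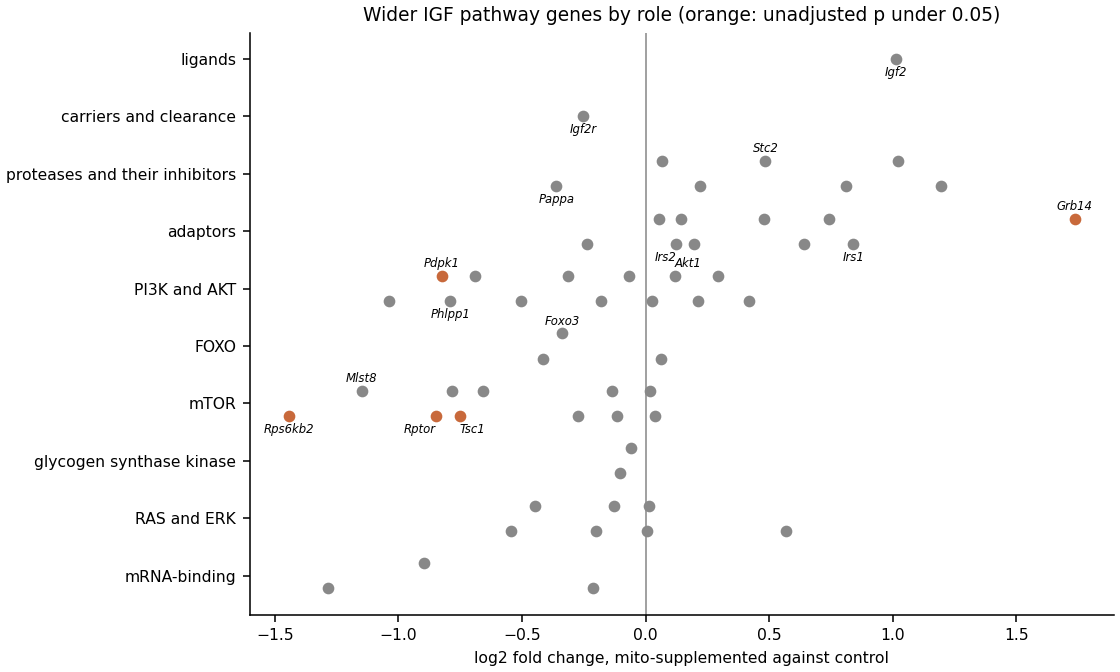
Log2 fold changes of the 58 pathway genes tested, grouped by role, with orange points for an unadjusted p under 0.05 in edgeR's quasi-likelihood test. Grb14 is the orange point on the right, and Tsc1, Rptor, Pdpk1 and Rps6kb2 are those on the left.

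The plot of the pathway by role shows adaptors and proteases mainly to the right of 0 and mTOR genes mainly to the left. The signs of Pappa, Stc2 and Irs2 among them changed as single libraries were left out. Adjusted p values in edgeR's quasi-likelihood test were 0.599 or more for all of its points.

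Mean sums of surface epithelium, stroma, pregranulosa, endothelial, smooth muscle and pericyte, and immune markers were, like most IGFBPs, higher in the mito-supplemented group. The groups overlapped in each of these sums. The part of these markers in the result was not tested. The 8 surface epithelium markers, of which Upk3b was the most abundant, summed to 66.0, 31.8, 27.2 and 277 CPM in control replicates 1 to 4 and to 228, 593, 246 and 527 CPM in mito-supplemented replicates 1 to 4. Like Igfbp5, their sum was lower in control replicates 1, 2 and 3 than in each other library. The stroma, pregranulosa and endothelial sums shared this pattern. Of the surface epithelium markers 8 of 8 had a log2 fold change above 0, with a median of 1.88 that became 3.37 without control replicate 4. The 8 stroma markers, led over both groups by Col3a1, with Col1a1 about level in controls, summed to 336, 448, 649 and 2199 CPM in controls and to 949, 978, 2480.3 and 2182 CPM in mito-supplemented samples. All 8 were above 0, with a median of 0.74, but the median was 1.69 once control replicate 4 was left out, and 0.44, with 6 of 8 above 0, after omission of mito-supplemented replicate 4. Control replicate 4 was again the highest control, as it was for Igf1, Igf1r, Igfbp3, Igfbp4, Igfbp5 and Igfbp7. The 8 pregranulosa markers, led over both groups by Lgr5, which surface epithelium is also known to express, summed to 172, 136, 178 and 349.9 CPM in controls and to 287, 495, 429 and 486 CPM in mito-supplemented samples, with 7 of 8 above 0. In controls Kitl was the most abundant of them, at a mean of 67.0 CPM against 32.4 CPM for Lgr5. Mito-supplemented replicate 1 was the lowest of its group in the pregranulosa sum, as it was for Igf1, Igfbp2, Igfbp3, Igfbp4, Igfbp6 and Igfbp7, but not for Igfbp5, Igf1r or Insr.

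The 8 oocyte markers, led by Kit, summed to 1451, 133, 82.9 and 242 CPM in controls and to 189, 87.0, 264.5 and 50.4 CPM in mito-supplemented samples, and 0 of 8 were above 0, with a median of -1.72. This direction rested on control replicate 1, as 6 of 8 were above 0 without it, with a median of 0.27. Control replicate 1, by far the richest in oocyte transcripts, had the lowest Igfbp3, Igfbp4, Igfbp5 and Igfbp7 of all 8 libraries. Its Igfbp2 and Igfbp6, at 8.45 and 2.58 CPM, were the highest of the controls, and its Igf1 was above that of control replicate 2. Endothelial markers, led by Kdr, summed to 25.5, 28.8, 42.1 and 212 CPM in controls and to 98.4, 226, 173 and 193 CPM in mito-supplemented samples, and 5 of the 7 tested were above 0. Smooth muscle and pericyte markers, led by Myh11, summed to 34.0, 31.2, 55.6 and 258 CPM in controls and to 50.8, 92.9, 126 and 363 CPM in mito-supplemented samples, and 6 of the 7 tested were above 0, or 4 of 8 without control replicate 2 and also without mito-supplemented replicate 4 (median -0.032 in the latter, against 0.88 with all libraries). Both sums were highest among controls in replicate 4, like Igf1 and most IGFBPs. Immune markers summed to 9.89, 40.04, 49.1 and 2.76 CPM in controls and to 124, 9.90, 13.9 and 6.54 CPM in mito-supplemented samples, with Ptprc the most abundant and C1qb at 0 in all libraries, and 5 of the 5 tested were above 0, or 2 of 5 without mito-supplemented replicate 1. Red cell markers, led by Slc4a1, summed to 13.4, 3617, 2401 and 41.4 CPM in controls and to 4530.3, 72.9, 20.1 and 19.2 CPM in mito-supplemented samples, and 0 of the 3 tested were above 0, or 3 of 3 without control replicate 2. Immune and red cell markers followed a course of their own, high in control replicates 2 and 3 and mito-supplemented replicate 1, which none of the 9 IGF genes shared. The groups overlapped in all 8 sums, while the single markers Lgr5, Esam and Upk1b were higher in every mito-supplemented library than in any control. They were the only markers of the 8 lists separated in this direction, where 3.00% of all genes were.

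**Figure D5:**
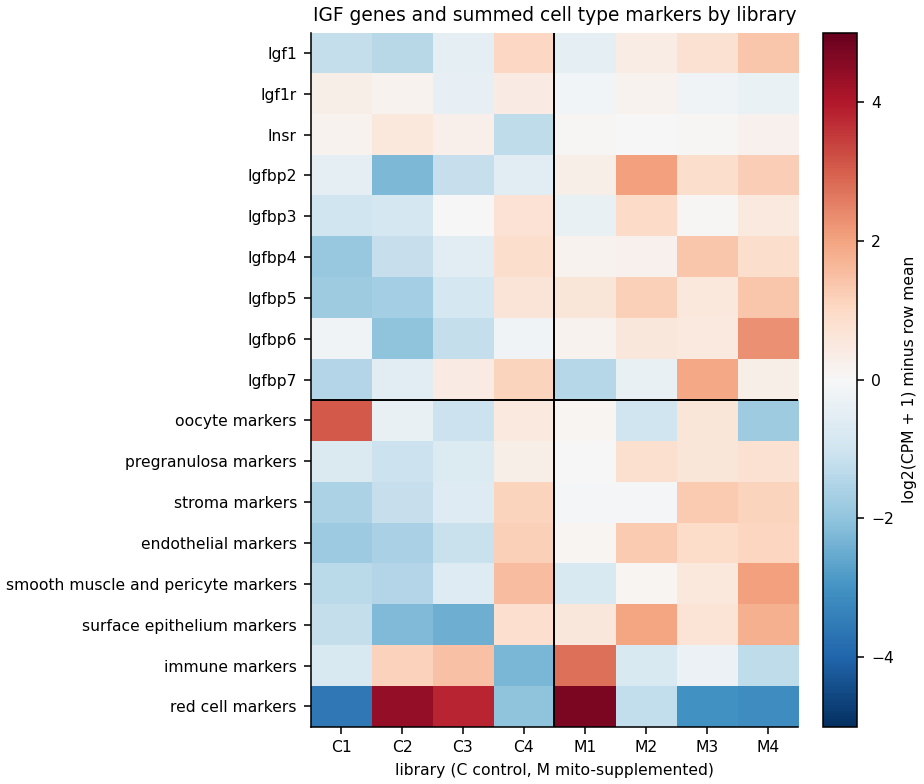
Colour map of the 9 IGF genes and the 8 marker list sums in each library, as log2 of CPM plus 1 minus the mean over the 8 libraries. In control replicate 4, Igf1, Igf1r, Igfbp3, Igfbp4, Igfbp5 and Igfbp7 are above their mean. So are all marker sums except those of immune and red cell markers. Insr, Igfbp2 and Igfbp6 are below their mean there, as are the immune and red cell sums.

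The colour map of genes and marker sums sets each gene or sum against its own mean, so that only the pattern over libraries is compared. Without control replicates 1 and 4, the libraries that stood apart, an alternative chosen after seeing the data, the log2 fold changes were 2.20 for Igfbp5, 3.17 for Igfbp2 and 4.35 for Igfbp6, and edgeR's quasi-likelihood test still called 0 genes.

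Outside the pathway and marker lists, the genes whose log2 CPM followed each member most closely over the 8 libraries were named as a description, by Pearson correlation. Igf1 was followed by Rasgrp3 (r = 0.991) and Pde7b (r = 0.989), Igfbp5 by Ptk7 (r = 0.987) and Vat1l (r = 0.986), and Igfbp2 by Cldn15 (r = 0.981) and Dclk1 (r = 0.979). Cldn15 encodes a claudin of epithelial tight junctions. For Igfbp4 the closest genes were Heg1 (r = 0.973) and Sparc (r = 0.971), for Igfbp6 Stxbp6 (r = 0.986) and Wwc1 (r = 0.980), for Igfbp3 Evpl (r = 0.967) and Vav2 (r = 0.966), and for Igfbp7 Matn2 (r = 0.963) and Gpr124 (r = 0.961). Sparc and Matn2 encode proteins of the extracellular matrix. Insr was followed by Gm4130 (r = 0.989) and Ankra2 (r = 0.982), and Igf1r by Pdcd11 (r = 0.915) and Plk1s1 (r = 0.910). Above r = 0.95 there were 77 genes for Igf1, 56 for Igfbp5, 26 for Igfbp2 and 0 for Igf1r, and all of these correlations share the libraries, their depth and their composition.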

How the data were processed

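The library kit amplifies cDNA isothermally from a single primer and includes a step against ribosomal sequences. Per the submitters' processing notes, reads were trimmed with Trim Galore 0.4.4, mapped to mm10 (GRCm38) with STAR 2.5.3a and counted with featureCounts by the authors, who used edgeR 3.20.9. The deposited values are raw counts per gene symbol without normalization. Which annotation release and strand setting were used, and how multimapping reads were treated, is not given in the sources used here. Groups and replicate numbers were taken from the sample labels.

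The members, the pathway list and the marker lists were chosen with earlier results of these data known. Counts were analysed in R 4.3.3 with edgeR 4.0.16, using TMM normalization, filterByExpr with default settings, glmQLFit with legacy settings, glmQLFTest and Benjamini-Hochberg adjustment over 13873 genes. A call required an adjusted p under 0.05 with a log2 fold change of 1 or more in either direction. Log2 CPM used a prior count of 2. The standard error was computed as the size of the log2 fold change over the square root of F. The detection limit was 3 counts. All pairs of libraries were compared for duplicates by chi-square, which was at least 60.0 per degree of freedom.

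Alternatives were the likelihood ratio test, DESeq2 1.42.0, limma 3.58.1 (voom with sample quality weights), RLE size factors, library size alone, an offset for GC content and length (known for 97.4% of genes tested), other filters on low counts, a replicate block, counts summed by label code, removal of 4 ribosomal RNA genes (Rnr1, Rnr2, Rn45s and Rn18s) and leaving out each library in turn. Quasi-likelihood without legacy settings and leaving out control replicates 1 and 4 together were chosen after seeing the data. The fits were tested on simulated counts.

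Named genes were all 9 members, the 8 pathway genes with the lowest unadjusted p, Igf2, Igf2r, Igfbp1, Irs1, Irs2, Pappa, Stc2, Akt1 and Foxo3, and the 2 genes most correlated with each member. Some items of these lists are not reported here. Coordinates and exon lengths are from GENCODE M21 (GRCm38), to which 24557 of 26586 symbols were matched, 2089 of them by older symbols. Adgre1, Hbb-bs, Hbb-bt, Hras and the litter, follicle and histological measurements were not analysed here.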

Additional observations from a re-analysis of the deposited data

Results flagged for a closer look

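In 4 of 64 groups of 4 libraries examined among the named genes and the ratios and sums of members, 1 library lay far from the other 3 on the log2 CPM scale by Dixon's ratio. Chance marks about 1 in 20 groups, or 3.2 of 64. Rps6kb2 was at 2.61 in control replicate 1 (146 counts), against 4.37 to 4.61 in the other controls. Phlpp1 was at 4.82 in mito-supplemented replicate 1 (579 counts), against 5.37 to 5.45 in its group, and Irs1 was at 4.73 in the same library (546 counts), against 5.93 to 5.97. Akt1 was at 6.71 in control replicate 4 (528 counts), against 4.41 to 4.76 in the other controls. None of the 9 IGF genes was among them.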

How the results depend on the processing

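The count of genes called was 0 in edgeR's quasi-likelihood test and under 18 of 21 alternatives and omissions, but 58 with the likelihood ratio test, 141 with DESeq2 and 2578 with limma-voom, whose library weights ran from 0.231 (control replicate 1) to 3.53 (control replicate 3). The 9 IGF genes had 1 call with DESeq2 and 5 with limma-voom, and the pathway list 11 with limma-voom. Of 189 log2 fold changes of the 9 genes under alternatives, 8 had the other sign. Igf1r was at 0.11 with limma-voom and 0.045 with library size alone. Insr was at -0.00098 with DESeq2, -0.20 with limma-voom, -0.00025 with RLE size factors and -0.33 without control replicates 1 and 4 (chosen after seeing the data), and ran from -0.23 to 0.22 as single libraries were left out. Igfbp7 ran from -0.53 to 1.01 over these omissions. Igf2r was at 0.61 with limma-voom and 0.56 without controls 1 and 4 (single omissions -0.45 to 0.29), Irs2 at -0.54 and -0.31 (-0.16 to 0.39), Pappa at 0.025 with library size alone (-0.63 to 0.35), Stc2 at -0.23 summed by label code and -0.40 without controls 1 and 4 (-0.094 to 3.03), and Akt1 at -0.029 with the GC and length offset (-0.096 to 1.03). The pathway median was 0.16 with library size alone and 0.025 without controls 1 and 4. The member median was 0.84 in edgeR's quasi-likelihood test, 1.49 with library size alone, 1.503 summed by label code, 1.55 without controls 1 and 4 and 1.67 without control replicate 4, and the surface epithelium marker median was 3.995 without controls 1 and 4. The cause was not tested, beyond the fewer samples of the omissions. The correlations of same-numbered libraries' deviations were -0.24, -0.19, -0.33 and 0.22. They were not compared with those of differently numbered libraries, so they do not settle whether the numbers pair the samples. With the replicate block 0 genes were called, Igfbp7 was at 0.22 and Stc2 at 2.40. Depth limits Igfbp6, with 0 to 63 counts in controls, and control replicate 4, with 2559876 counts outside ribosomal RNA genes.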
